A study of Mus musculus with 14 samples.

Results

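Islets are clusters of hormone-producing cells in the pancreas, and they hold resident macrophages beside the endocrine and blood vessel cells. Genes used as markers of macrophages and of their blood precursors, monocytes, were read array by array in islets of 3 genotypes. They were Csf1r, Cd68, Mrc1, Clec7a, Ccr2, Cx3cr1, Itgam, Cd14, Fcgr1 and Cd163. Each was taken by name from the table of log2 signals, and all 10 were among the 19938 genes tested. The study has 14 arrays of untreated 11-week-old mice of mixed C57BL/6 and NMRI background. Control mice gave 5 of the arrays. Pdx-1+/- mice gave 4, and in these animals the driver allele Pdx-1-tTA causes haploinsufficiency for Pdx-1. The last 5 came from IKK2-CApdx-1 mice (IKK2-CA in what follows), which were diabetic. They carry that same driver allele, and through it their β-cells make a constitutively active IKK2, the kinase that switches on NF-κB. Diabetes, the driver allele and active IKK2 therefore cannot be told apart in IKK2-CA against control. Pdx-1+/- islets share the driver allele alone, so diabetes and active IKK2 cannot be told apart in IKK2-CA against Pdx-1+/-. Whether each array is a separate mouse is not given, so p-values measure only the spread between these arrays.

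Macrophages settle in tissues before birth or arise from monocytes that leave the blood. CSF1R is the receptor for the growth factor that keeps these cells alive, and CCR2 is the receptor through which inflammatory monocytes follow the chemokine CCL2 out of the bone marrow and into tissue, whereas CX3CR1 binds the tethered chemokine CX3CL1 and is also high on many tissue macrophages. CD14 hands bacterial lipopolysaccharide to Toll-like receptor 4, Dectin-1 (Clec7a) recognises fungal β-glucans, FCGR1 binds antibody, and MRC1 and CD163 are scavenger receptors typical of resident and alternatively activated macrophages. Dendritic cells also carry Clec7a, and many of those derived from monocytes carry Ccr2. In whole islet RNA, fewer cells of a type and less RNA per cell cannot be told apart.

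Macrophage genes are commonly controlled by the transcription factor PU.1, which binds purine-rich DNA, so the 250 bases upstream of the annotated start were read for 8 of the 10 genes (RefSeq, GRCm38.p6). The 4 windows shown belong to the pair of genes that rose (Clec7a, Ccr2), to Fcgr1 and to Mrc1. Over all arrays, Fcgr1 varied with the pair and Mrc1 did not. Capitals mark the core GAGGAA on either strand (TTCCTC on the printed strand when it lies on the other).
Clec7a: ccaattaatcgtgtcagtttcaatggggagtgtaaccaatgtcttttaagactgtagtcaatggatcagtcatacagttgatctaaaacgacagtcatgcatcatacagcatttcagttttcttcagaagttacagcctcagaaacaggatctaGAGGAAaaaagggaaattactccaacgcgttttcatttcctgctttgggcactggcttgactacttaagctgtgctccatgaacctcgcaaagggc
Ccr2: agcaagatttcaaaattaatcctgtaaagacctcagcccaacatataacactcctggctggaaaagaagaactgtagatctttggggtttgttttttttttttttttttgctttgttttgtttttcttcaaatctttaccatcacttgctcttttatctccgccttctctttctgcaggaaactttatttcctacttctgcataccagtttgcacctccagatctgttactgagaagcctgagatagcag
Fcgr1: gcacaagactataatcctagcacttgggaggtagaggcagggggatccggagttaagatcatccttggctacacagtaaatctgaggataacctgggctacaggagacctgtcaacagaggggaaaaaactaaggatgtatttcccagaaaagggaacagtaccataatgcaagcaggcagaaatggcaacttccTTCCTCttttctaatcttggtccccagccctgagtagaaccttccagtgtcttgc
Mrc1: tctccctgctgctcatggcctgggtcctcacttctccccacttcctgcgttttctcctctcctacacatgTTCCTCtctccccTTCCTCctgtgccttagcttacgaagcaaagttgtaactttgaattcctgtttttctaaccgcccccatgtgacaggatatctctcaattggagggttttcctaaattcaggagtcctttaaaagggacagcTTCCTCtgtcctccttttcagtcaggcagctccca
They lie at chr6:129472780-129473029 on the minus strand for Clec7a, chr9:124101933-124102182 on the plus strand for Ccr2, chr3:96293970-96294219 on the minus strand for Fcgr1 and chr2:14229164-14229413 on the plus strand for Mrc1. The core was found once in Clec7a, beginning 96 bases upstream of the start, once in Fcgr1, beginning 55 bases upstream, and 3 times in Mrc1, and it was not in the Ccr2 window. It was in 5 of the 8 windows, also in those of Cd68 and Itgam and not in those of Cx3cr1 and Cd163. Of the 32851 windows of this length in the table, 23.3% held it. The κB consensus, the motif bound by NF-κB, was in none of the 8 windows (0 of 8) and in 3.9% of all windows. A looser pattern (GGG, any 5 bases, CC) had been searched before it and was in 45.8% of all windows, so the stricter motif was taken after those matches were seen. The looser pattern matched in Mrc1, Cx3cr1, Itgam and Cd163, and in neither Clec7a nor Ccr2.

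Clec7a and Ccr2 rose in IKK2-CA islets, and on every IKK2-CA array they read higher than on any of the 9 other arrays. The 8 remaining markers did not pass the test in any comparison, among them Csf1r, Cd68 and Itgam, which are common markers of macrophages. Against control, 2 of 10 markers were higher and 0 lower, where over all genes 0.682% were called higher and 1.56% lower. Against Pdx-1+/-, none of the 10 passed, and over all genes 0.0752% were called higher and 0% lower. In that comparison 5 of the 10 had an unadjusted p under 0.05, as did 7.02% of all genes. Of these, Clec7a, Ccr2 and Fcgr1 were higher and Mrc1 and Cd163 lower. Against control 4 of the 10 did (Clec7a, Ccr2 and Fcgr1 higher, Cd163 lower), as did 15.7% of all genes. The counts of unadjusted p given below for the gene lists hold both directions and are to be read against these shares. The test was limma on the 3 group means, fitted over the 14 arrays together, with Benjamini-Hochberg adjustment over all genes and a threshold of 0.05. Both comparisons share the IKK2-CA arrays, so their results are not independent of each other. The median log2 difference of the 10 markers was 0.25 against control and 0.09 against Pdx-1+/-, beside −0.012 and −0.015 over all genes.

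**Figure D1:**
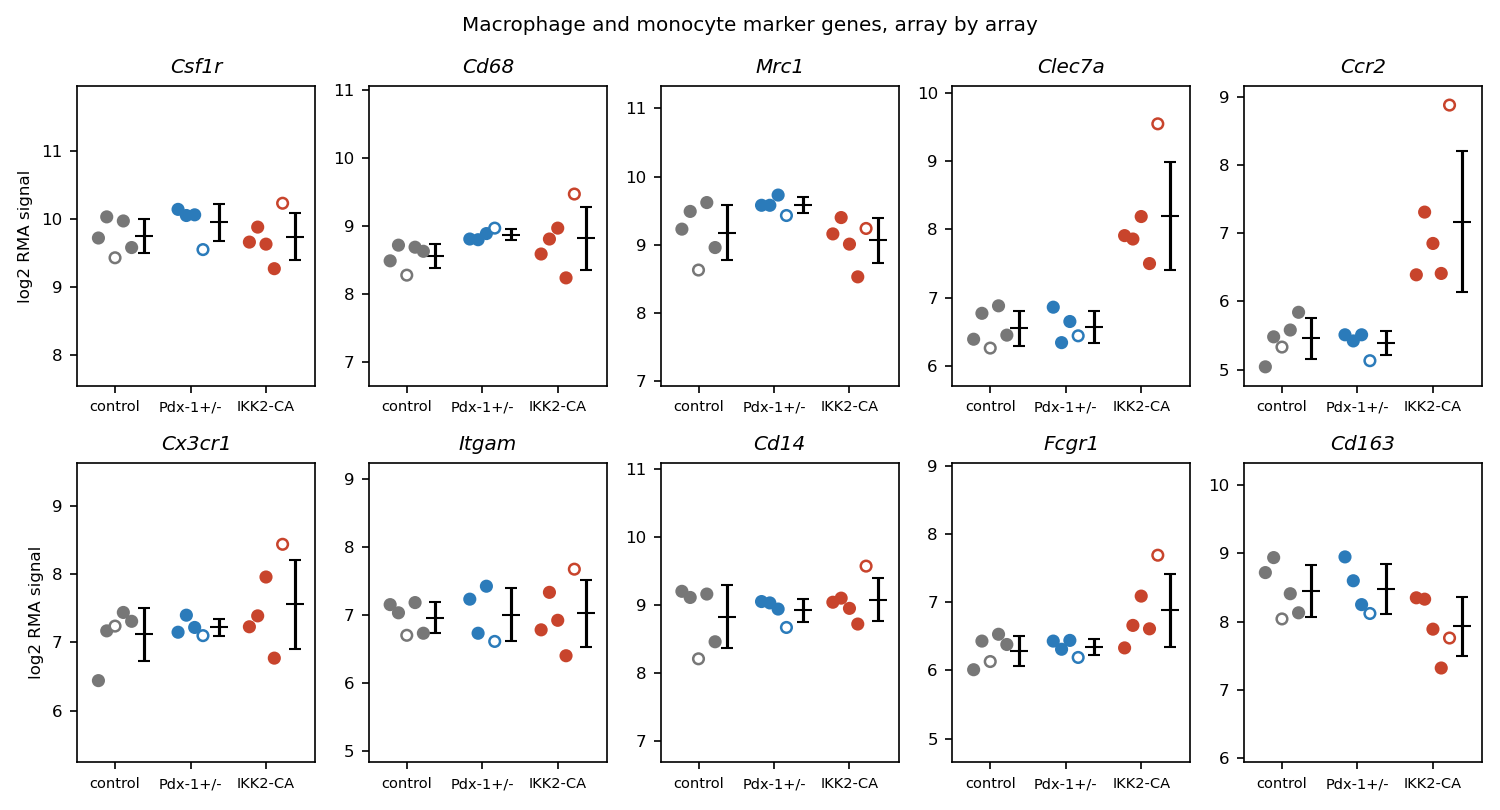
Log2 RMA signal (vertical axes, all of the same span) of the 10 marker genes on each array of control, Pdx-1+/- and IKK2-CA islets; points are arrays, open points are arrays carrying genes of another tissue, and bars are the group mean and SD. The 5 IKK2-CA arrays stand above all others for Clec7a and Ccr2 and overlap the control arrays for the other 8 genes.

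Ccr2 (transcript cluster 10590631) was the marker with the largest difference between IKK2-CA islets and either other group. It read 5.04, 5.48, 5.33, 5.58 and 5.84 on control arrays 1 to 5, 5.51, 5.42, 5.51 and 5.13 on Pdx-1+/- arrays 1 to 4, and 6.39, 7.31, 6.85, 6.41 and 8.88 on IKK2-CA arrays 1 to 5. The lowest IKK2-CA array was thus above the highest control array, and array 5 of that group stood well above the rest of it. The group means were 5.46 ± 0.30 (SD, n = 5), 5.39 ± 0.18 (SD, n = 4) and 7.17 ± 1.03 (SD, n = 5). IKK2-CA islets were 1.71 log2 above control (SE 0.36, 95% interval 0.94 to 2.49), or 3.28-fold, with a limma adjusted p of 0.0251. They were 1.78 log2 above Pdx-1+/- (SE 0.38, 95% interval 0.95 to 2.6), or 3.43-fold, with an adjusted p of 0.13 that missed the threshold.

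Clec7a (transcript cluster 10548375) showed the same order. It read 6.39, 6.77, 6.26, 6.88 and 6.45 on the control arrays, 6.86, 6.34, 6.65 and 6.44 on the Pdx-1+/- arrays, and 7.91, 7.86, 8.19, 7.50 and 9.55 on the IKK2-CA arrays. Control and Pdx-1+/- arrays covered nearly the same range, and IKK2-CA array 5 was again the highest. The means were 6.55 ± 0.26 (SD, n = 5), 6.57 ± 0.23 (SD, n = 4) and 8.2 ± 0.79 (SD, n = 5). IKK2-CA exceeded control by 1.65 log2 (SE 0.29, 95% interval 1.03 to 2.27), or 3.14-fold, with a limma adjusted p of 0.0111. The difference from Pdx-1+/- was 1.63 log2 (SE 0.31, 95% interval 0.97 to 2.29), or 3.10-fold, and its adjusted p of 0.0737 missed the threshold. Against Pdx-1+/-, 2 of the 10 markers had every IKK2-CA array above every array of the other group, as did 1.72% of all genes, and against control 2 of 10 did, as did 1.86% of all genes.

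Single arrays decided some of these calls. Without IKK2-CA array 5, the limma adjusted p against Pdx-1+/- became 0.00199 for Clec7a and 0.00673 for Ccr2, past the threshold, at smaller differences of 1.29 and 1.35 log2. Without IKK2-CA array 4 it was 0.0316 for Clec7a. Against control, Clec7a passed in all 14 fits that left out 1 array, with adjusted p between 0.000736 and 0.042. Ccr2 passed in 9 of these 14. It reached 0.0665 without control array 1, 0.0816 without control array 3, 0.0631 without control array 4, 0.0575 without IKK2-CA array 2 and 0.0511 without IKK2-CA array 3.

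Genes of other tissues set 3 arrays apart. IKK2-CA array 5 had a mean of 2.54 over 7 adipocyte genes (log2 deviation from each gene's mean over the 14 arrays), where the other arrays of its group reached at most −0.10. Pdx-1+/- array 4 had 2.88 and control array 3 had 1.33 over 10 intestinal genes. IKK2-CA array 5 also gave the highest reading of the 14 arrays for 8 of the 10 markers, the exceptions being Mrc1 and Cd163. Fat holds macrophages as well, and the part of fat in the marker readings was not tested. Without IKK2-CA array 5 and Pdx-1+/- array 4, the limma adjusted p of Clec7a was 0.000853 against control (1.32 log2) and 0.00768 against Pdx-1+/- (1.25 log2). That of Ccr2 was 0.00318 (1.29 log2) and 0.0234 (1.26 log2). Both genes thus passed in each comparison without these arrays.

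**Figure D2:**
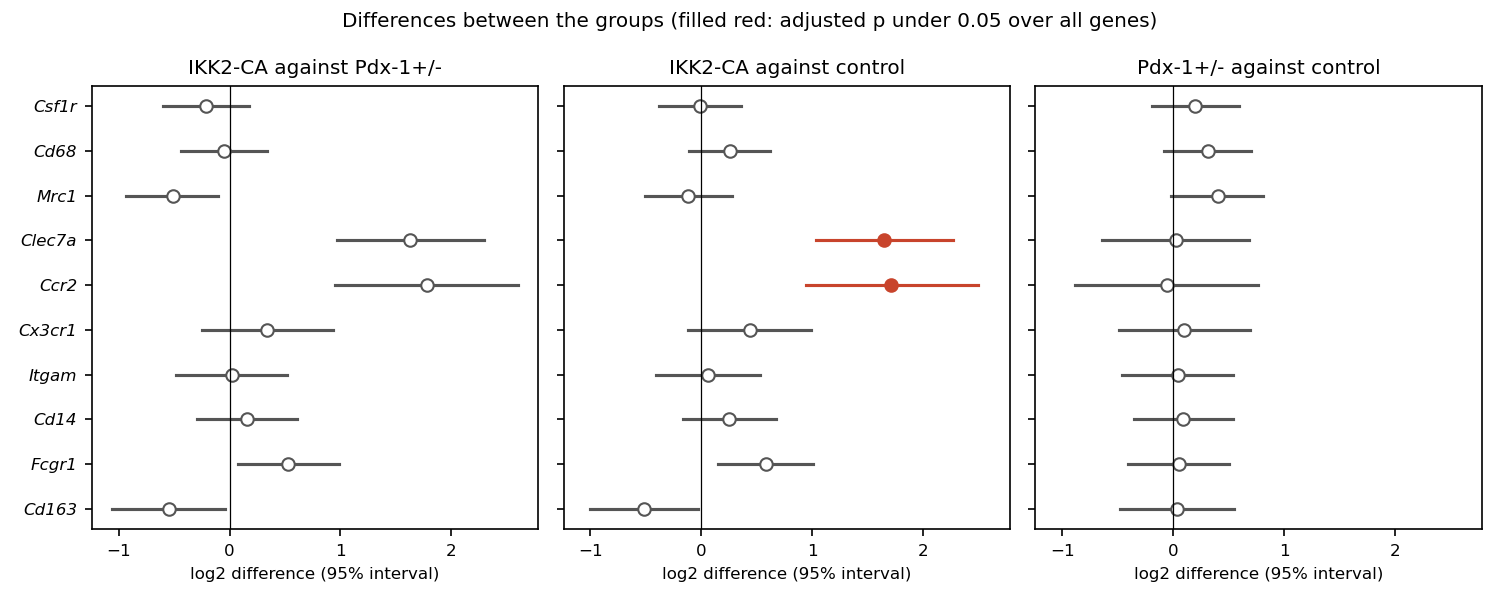
Log2 difference (horizontal axes) of each marker gene in the 3 comparisons, with its 95% interval; filled red points passed the threshold. Clec7a at 1.65 and Ccr2 at 1.71 against control are the points that passed, and the intervals of Csf1r and Itgam span 0 in each comparison.

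Fcgr1 (transcript cluster 10500335), the high-affinity receptor for immunoglobulin G, lay between the markers that rose and those that did not pass. It read 6.01, 6.43, 6.13, 6.53 and 6.38 in control, 6.43, 6.31, 6.44 and 6.19 in Pdx-1+/- and 6.33, 6.66, 7.09, 6.61 and 7.69 in IKK2-CA islets. In 4 of the 5 IKK2-CA arrays it was above every array of the other groups, while array 1 was inside their range. The difference was 0.58 log2 against control (SE 0.20, limma adjusted p = 0.156) and 0.53 against Pdx-1+/- (SE 0.21, adjusted p = 0.624). Its unadjusted p was 0.0111 and 0.0243.

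Csf1r (transcript cluster 10456071), the lineage's growth factor receptor, read nearly the same in the 3 genotypes. It gave 9.72, 10.03, 9.43, 9.97 and 9.58 in control, 10.14, 10.05, 10.06 and 9.55 in Pdx-1+/- and 9.66, 9.88, 9.63, 9.27 and 10.23 in IKK2-CA islets. The ranges overlapped throughout, and IKK2-CA arrays held both the highest and the lowest value. The difference between IKK2-CA and control was −0.01 log2 with a 95% interval of −0.38 to 0.36, and between IKK2-CA and Pdx-1+/- −0.21 with an interval of −0.60 to 0.18. These intervals bound the change that the arrays could have missed; they do not show that the level was equal.

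Cd68, a lysosomal glycoprotein of phagocytes (transcript cluster 10387536), read 8.28 to 8.72 in control, 8.80 to 8.97 in Pdx-1+/- and 8.24 to 9.47 in IKK2-CA islets. Its difference between IKK2-CA and control was 0.26 log2 (95% interval −0.11 to 0.62, limma adjusted p = 0.538). Every Pdx-1+/- array was above every control array, at a difference of 0.31 log2 (SE 0.18, adjusted p = 0.999) that did not pass. Such a separation held for 1 of the 10 markers in Pdx-1+/- against control, and 0.481% of all genes lay above and 1.4% below in that way.

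Itgam encodes the αM chain of the β2 integrin CR3, a complement receptor of macrophages and neutrophils. Its own transcript cluster (10557862) read 6.70 to 7.18 in control, 6.61 to 7.42 in Pdx-1+/- and 6.40 to 7.67 in IKK2-CA islets, and the IKK2-CA to control difference was 0.06 log2 (95% interval −0.41 to 0.53). Another 3 clusters name Itgam together with the ribosomal gene Rpl35, at means of 11.29 to 11.41. They were not used, since a cluster with several symbols belongs to no single gene. Cd14 (transcript cluster 10458382) read 8.21 to 9.20, 8.67 to 9.05 and 8.72 to 9.57 in the 3 groups in the same order, a difference of 0.25 log2 from control (95% interval −0.17 to 0.67).

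Cx3cr1 (transcript cluster 10597743) read 6.44, 7.17, 7.24, 7.44 and 7.31 in control, 7.15, 7.40, 7.22 and 7.10 in Pdx-1+/- and 7.23, 7.39, 7.96, 6.77 and 8.44 in IKK2-CA islets. The IKK2-CA arrays spread both below and above the others. The difference from control was 0.44 log2 (95% interval −0.12 to 0.99, limma adjusted p = 0.469). This receptor, high on patrolling monocytes and many tissue macrophages, therefore did not pass where Ccr2 did. Whether the changes of these receptors differ from each other was not tested.

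Neither scavenger receptor passed the test, though Cd163 read lower in IKK2-CA islets on average than in both other groups, and Mrc1 lower than in Pdx-1+/- islets. Cd163 (transcript cluster 10541644), which takes up haemoglobin bound to haptoglobin, read 8.72, 8.94, 8.04, 8.41 and 8.13 in control, 8.95, 8.60, 8.25 and 8.12 in Pdx-1+/- and 8.35, 8.33, 7.89, 7.32 and 7.76 in IKK2-CA islets. The lowest 3 readings of the gene were all on IKK2-CA arrays. The difference was −0.52 log2 against control (SE 0.23, limma adjusted p = 0.277) and −0.55 against Pdx-1+/- (SE 0.24, adjusted p = 0.666). Mrc1 (transcript cluster 10469358), the mannose receptor, read 9.23, 9.49, 8.63, 9.62 and 8.96 in control, 9.58, 9.58, 9.73 and 9.43 in Pdx-1+/- and 9.16, 9.40, 9.01, 8.53 and 9.24 in IKK2-CA islets. Every IKK2-CA array was below every Pdx-1+/- array, at −0.51 log2 (SE 0.20, adjusted p = 0.589), and the control arrays overlapped both. Of all genes, 0.712% lay below Pdx-1+/- in that way and 2.34% below control.

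In Pdx-1+/- islets, which carry the driver allele alone, no marker differed from control past the threshold. In Pdx-1+/- against control, 0 of 10 passed with limma, 0 had an unadjusted p under 0.05 (4.71% of all genes), and every adjusted p was 0.999. Over all genes, 0% were called higher and 0.0953% lower in that comparison. The largest difference was that of Mrc1, 0.40 log2 with a 95% interval of −0.02 to 0.81. For Clec7a and Ccr2 the differences were 0.02 (−0.64 to 0.68) and −0.06 log2 (−0.89 to 0.76).

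**Figure D3:**
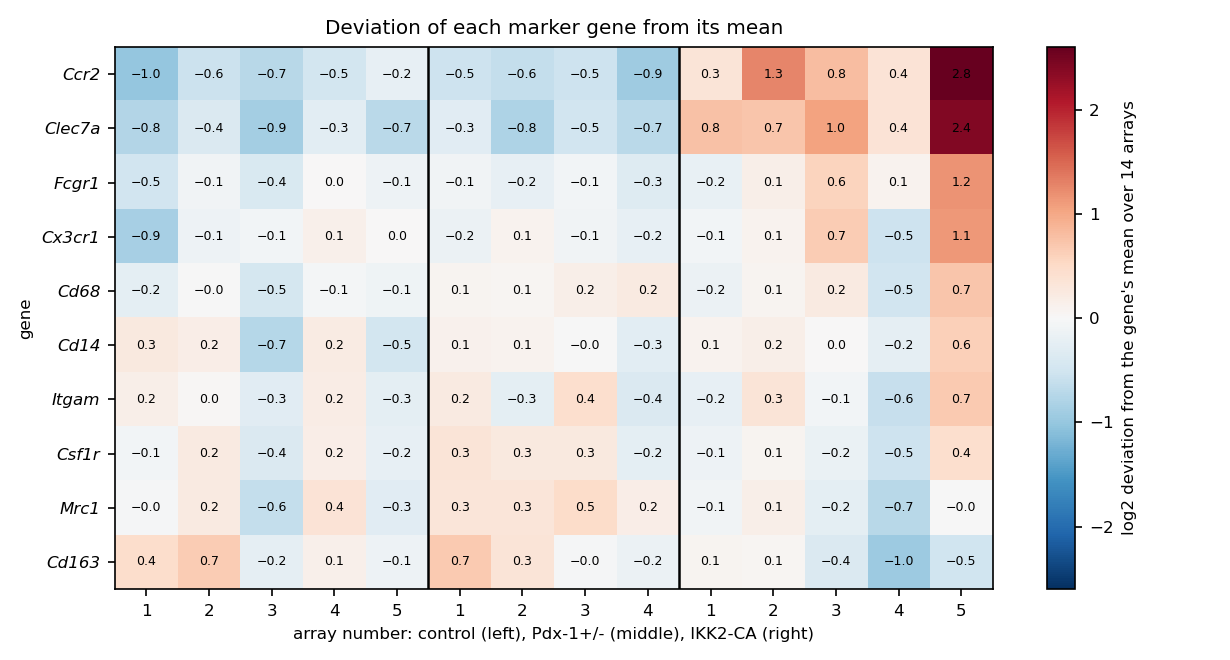
Log2 deviation of each marker gene (rows) from its mean over the 14 arrays, for every array (columns; control left, Pdx-1+/- middle, IKK2-CA right); red is above and blue below the mean, and each cell gives the value. Ccr2 and Clec7a are red on all IKK2-CA arrays, Cd163 and Mrc1 are not, and column 5 of IKK2-CA is red for 8 genes.

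Some markers varied together more closely than others, a description over 14 arrays that share their libraries and groups. Correlations over all arrays also carry the difference between the genotypes. Clec7a and Ccr2 had a Pearson correlation of 0.96 (Spearman 0.89), which was 0.90 without IKK2-CA array 5 and 0.86 after the group means were removed. Fcgr1 followed them, at 0.91 with Ccr2 and 0.90 with Clec7a, and 0.77 with either once that array was left out. Csf1r had its highest values with Itgam (0.82) and Mrc1 (0.81), and Mrc1 had 0.68 with Cd163. Csf1r had a correlation of 0.22 with both Clec7a and Ccr2 over all arrays, but 0.77 and 0.69 after the group means were removed. Likewise Cd68 had 0.56 with both over all arrays, but 0.88 and 0.82 after that removal. Itgam then had 0.75 and 0.69, Mrc1 0.48 and 0.34, and Cd163 0.12 and −0.047. Csf1r, Cd68 and Itgam were thus not a set apart from the pair once the group means were removed. The values after removal of the group means include IKK2-CA array 5, the highest of the 14 arrays for Csf1r, Clec7a and Ccr2. They were not computed without it, so a tendency within the groups cannot be told from the part of that array.

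The markers were also set against Csf1r on the same array. Csf1r differed little between the groups, so this could hardly change the separation of Clec7a and Ccr2 described above. It did not narrow the spread of every gene either. The SD of Ccr2 in control was 0.30 before and 0.38 after. The Clec7a signal relative to Csf1r ran from −3.33 to −3.10 log2 in control, −3.71 to −3.11 in Pdx-1+/- and −2.03 to −0.68 in IKK2-CA islets. For Ccr2 the ranges were −4.68 to −3.74, −4.63 to −4.41 and −3.27 to −1.36. In neither gene did the IKK2-CA range meet the others. Relative to Csf1r, Cd14 (−0.78 to −0.55) and Fcgr1 (−3.33 to −2.54) in IKK2-CA islets were also above every Pdx-1+/- array, where they ran from −1.13 to −0.87 and from −3.73 to −3.36, while both overlapped control. That makes 4 of the 9 other markers wholly above Pdx-1+/- and 2 of 9 wholly above control, beside 3.24% and 1.33% of all genes relative to Csf1r. These values are differences of log2 signals of unlike probes, so their shift between groups can be read and their size cannot. That shift also carries the difference of Csf1r itself, which was −0.21 log2 in IKK2-CA against Pdx-1+/-. Read without Csf1r, the IKK2-CA arrays overlapped Pdx-1+/- for both Cd14 and Fcgr1.

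Outside the 10 markers, the genes whose pattern was most like the markers' mean over the 14 arrays were Tyrobp (Pearson r 0.973), Nckap1l (0.957), Cybb (0.956), Sh3bp2 (0.951), Mcm3 (0.95) and Laptm5 (0.95). Tyrobp encodes the adaptor DAP12 of myeloid receptors, and Cybb the membrane subunit of the phagocyte oxidase. Without IKK2-CA array 5 these correlations were 0.869 to 0.931. None of the 6 passed against control with limma, where Nckap1l had the smallest adjusted p, 0.0788, at 0.83 log2 (SE 0.23).

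Lists of related genes were read beside the markers, each as a count of genes past the same threshold over all genes. Among 13 measured growth factors, receptors and lineage regulators, 3 rose against control and none fell, with a median of 0.39 log2. These were Csf2rb (1.44 log2, SE 0.29, limma adjusted p = 0.0219) and Csf2rb2 (1.47, SE 0.30, 0.0209), the β chains of the receptors for GM-CSF and for interleukin 3, and Irf8 (1.09, SE 0.25, 0.0406), a transcription factor of monocytes and dendritic cells. The mouse genes Csf2rb and Csf2rb2 are near-identical copies, so their readings may share signal. Spi1, which encodes PU.1, differed by 0.83 log2 with an adjusted p of 0.0873. Against Pdx-1+/- 0 of the 13 passed, and 7 had an unadjusted p under 0.05. Csf2rb lost its call without control array 1, 3, 4 or 5 or IKK2-CA array 3, Csf2rb2 without control array 3, 4 or 5 or IKK2-CA array 3, and Irf8 in 9 of the 14 fits that left out 1 array, with adjusted p up to 0.0686, 0.0723 and 0.128.

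Among 10 monocyte chemoattractants and receptors, 1 rose against control, and its call held in 4 of the 14 fits without 1 array. It was Cx3cl1, the ligand of CX3CR1, at 0.73 log2 (SE 0.17, limma adjusted p = 0.0438, up to 0.114 without 1 array, and 0.073 without IKK2-CA array 5 and Pdx-1+/- array 4). Ccr1, another chemokine receptor of monocytes, differed by 0.76 log2 (adjusted p = 0.175). Among 15 other macrophage markers, 1 rose, Mpeg1, which encodes the pore-forming protein perforin-2, at 1.16 log2 (SE 0.22, adjusted p = 0.0162, and 0.0561 without control array 3). The median of those 15 was 0.16. Cathepsin S (Ctss) differed by 1.04 log2 with an adjusted p of 0.065, and passed at 0.00616 without IKK2-CA array 5 and Pdx-1+/- array 4 (0.71 log2). In that fit its limma adjusted p against Pdx-1+/- was 0.0713. Among fits without 1 array, Ctss passed against control only without IKK2-CA array 4 (0.0296) or 5 (0.0118), and reached 0.175 without control array 3. Against Pdx-1+/- 0 of the 10 and 0 of the 15 passed, with 3 and 5 at an unadjusted p under 0.05.

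Partners of Itgam, Cd14 and Clec7a were counted as well. Of 7 β2 integrin genes and ligands, which include the chain that pairs with Itgam, 2 rose against control. Itgax, the αX chain that marks dendritic cells and some macrophages, rose by 2.16 log2 (SE 0.31, limma adjusted p = 0.00395) and was also 2.21 log2 higher than in Pdx-1+/- islets (SE 0.33, adjusted p = 0.0224). That second call was lost without any of the 4 Pdx-1+/- arrays or IKK2-CA array 3, with adjusted p up to 0.0984. Itgal, the αL chain of leukocytes, rose by 1.08 log2 (SE 0.26, adjusted p = 0.0443), a call lost in 9 of the 14 fits without 1 array (up to 0.137). Itgb2, the β2 chain itself, differed by 0.66 log2 (adjusted p = 0.205). Of 14 genes of Toll-like receptor 4 and Dectin-1 signalling, 0 passed in either comparison, with 3 at an unadjusted p under 0.05 against control and 5 against Pdx-1+/-. Malt1, a scaffold and protease downstream of Dectin-1, differed by 0.50 log2 (adjusted p = 0.0991). Of 11 Fc, scavenger and efferocytosis receptors, 0 passed in either comparison, with 2 and 1 at an unadjusted p under 0.05.

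Genes of inflammatory and of resident or alternatively activated macrophages were counted apart. All 11 genes listed as inflammatory macrophage products had a positive difference in both comparisons. Other lists were as one-sided in a single comparison. All 14 Toll-like receptor 4 and Dectin-1 genes and all 8 B cell genes were positive against Pdx-1+/-. Against control, all 10 T and natural killer cell genes and all 7 β2 integrin genes were. The part of β-cells, which make the active IKK2, in the readings of the 11 genes was not tested. The medians of the 11 genes were 1.01 log2 against control and 0.98 against Pdx-1+/-. Against control 2 of them rose, the elastase Mmp12 (2.19 log2, SE 0.37, limma adjusted p = 0.00886) and Il12b (0.96, SE 0.22, 0.0362), a subunit of interleukins 12 and 23, whose call was lost in 9 of the 14 fits without 1 array (up to 0.12). Against Pdx-1+/- Mmp12 rose by 2.30 log2 (SE 0.39, adjusted p = 0.0424), a call that held in 2 of the 14 fits without 1 array. Of 13 genes of resident and alternatively activated macrophages, 0 passed in either comparison and 10 were negative in each, with medians of −0.14 and −0.16. Here 3 and 6 had an unadjusted p under 0.05. Retnla, a secreted product of alternatively activated macrophages, went against the list at 1.24 log2 (SE 0.35, adjusted p = 0.0877). Of 6 monocyte subset genes, 0 passed in either comparison, with 3 and 2 at an unadjusted p under 0.05.

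**Figure D4:**
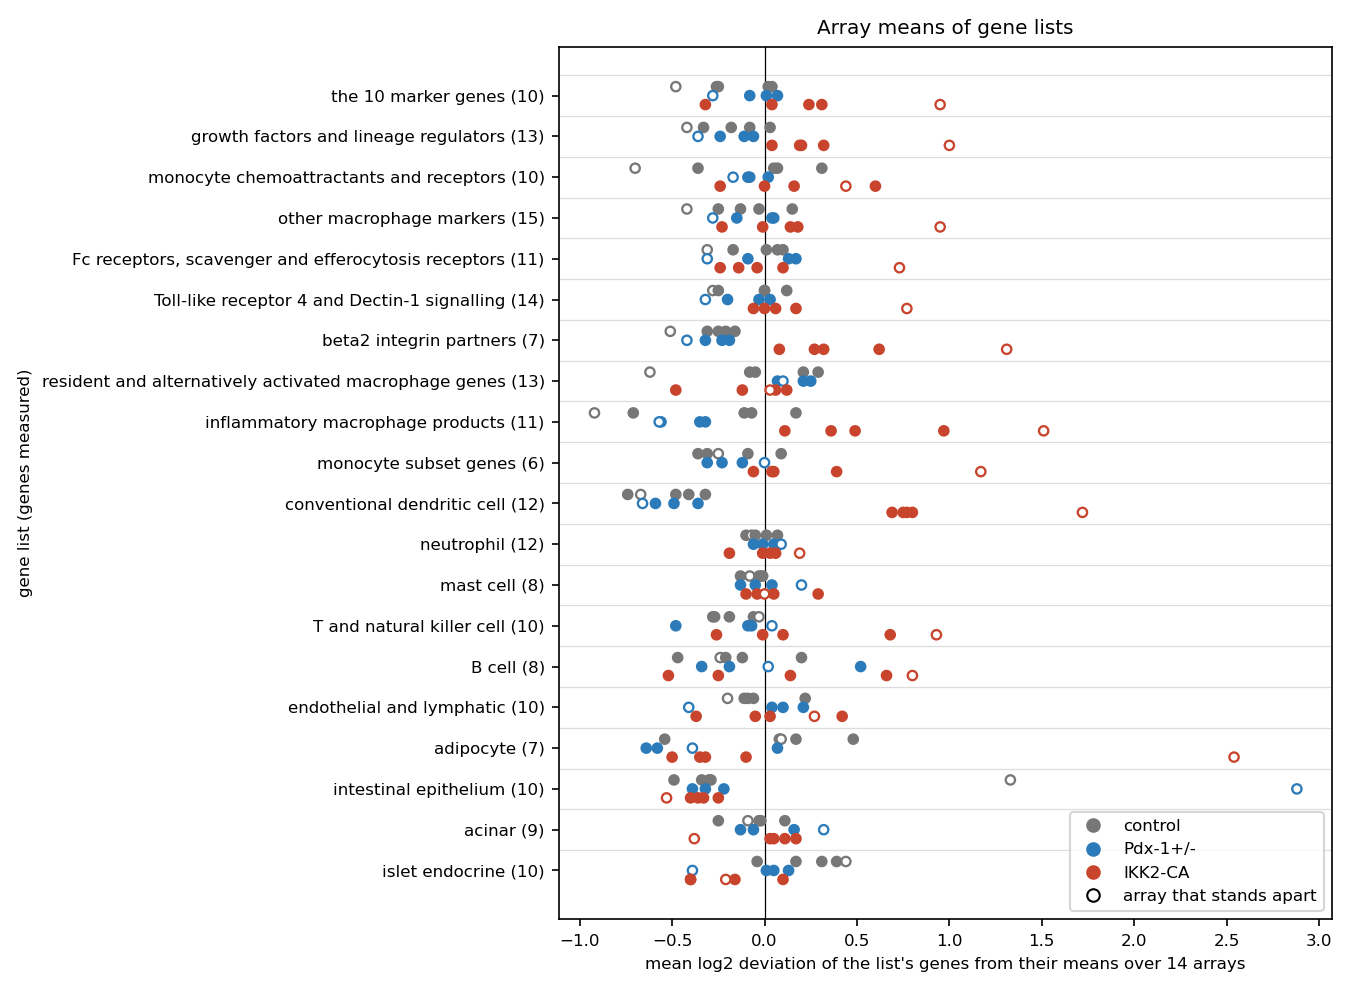
Mean log2 deviation of each gene list (rows, number of measured genes in brackets) on each array; points are arrays, and open points are arrays carrying genes of another tissue. The dendritic cell list runs from 0.69 to 1.72 on IKK2-CA arrays and from −0.74 to −0.32 on control arrays, while the list of the 10 markers overlaps between the groups.

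Most of the conventional dendritic cell genes measured rose in IKK2-CA islets, as Clec7a and Ccr2 did. Of 12, 9 rose against control and 6 against Pdx-1+/-, with medians of 1.5 and 1.55 log2. Their mean deviation was 0.69 to 1.72 log2 on the IKK2-CA arrays, against −0.74 to −0.32 on control and −0.66 to −0.36 on Pdx-1+/- arrays. Xcr1 and Clec9a, receptors of cross-presenting dendritic cells, rose by 1.65 log2 (SE 0.27, limma adjusted p = 0.00727) and 1.39 log2 (SE 0.25, adjusted p = 0.0114) against control. The others that rose were Flt3, Itgae, Cd209a, Ccr7, Fscn1, Ccl22 and Ccl17. The 3 that did not pass were Zbtb46 and Batf3, transcription factors of these cells, at 0.02 and 0.13 log2 (limma adjusted p = 0.959 and 0.537), and Dpp4, a surface peptidase, at −0.33 log2 (adjusted p = 0.632). The 10 macrophage markers overlapped in their mean deviation, from −0.32 to 0.95 on IKK2-CA and −0.48 to 0.04 on control arrays. For the dendritic cell list, leaving out 1 array gave counts of 8 to 9 genes against control and 1 to 8 against Pdx-1+/-. The part of dendritic cells in the Clec7a and Ccr2 readings was not tested.

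Markers of other cell types that an islet preparation could hold were also counted. No gene passed among 12 neutrophil, 8 mast cell, 10 T and natural killer cell, 8 B cell, 10 endothelial and lymphatic, 7 adipocyte, 10 intestinal or 9 acinar genes in either comparison with limma (0 in each list). Against control, 2, 1, 4, 2, 3, 0, 1 and 0 of them had an unadjusted p under 0.05, and against Pdx-1+/- 0, 1, 4, 0, 0, 0, 1 and 0. The acinar gene Cpa1 had means of 13.64 in control, 13.67 in Pdx-1+/- and 13.67 in IKK2-CA islets. The highest signals of the arrays were 13.64 to 13.73. The part of exocrine tissue in the marker readings was not tested. Neutrophils carry Itgam, Cd14 and Fcgr1 as well, and the mean of their list ran from −0.19 to 0.19 on IKK2-CA and from −0.10 to 0.07 on control arrays. The T and natural killer cell mean was 0.68 and 0.93, and the B cell mean 0.66 and 0.80, on IKK2-CA arrays 3 and 5, the arrays with the highest Clec7a readings. On the other IKK2-CA arrays these means were at most 0.10 and 0.14. Ccr2 was also highest on array 5 (8.88), but array 2 (7.31) came next, above array 3 (6.85). The part of T, natural killer and B cells in the marker readings was not tested. Cd3e, a CD3 chain of the T cell receptor complex, differed by 0.91 log2 (SE 0.28, adjusted p = 0.11). Of 10 islet endocrine genes, 3 fell against control (1 to 4 without 1 array). These were Sst, which fell by 0.67, G6pc2, which fell by 1.16, and Slc30a8, which fell by 1.44 log2, with limma adjusted p of 0.0358, 0.00828 and 0.0243. Without 1 array, G6pc2 passed in all 14 fits. Slc30a8 passed in 9, with adjusted p up to 0.0834, and lost its call without control array 1, 3, 4 or 5 or IKK2-CA array 5. Sst passed in 5, with adjusted p up to 0.119. Against Pdx-1+/- 0 of the 10 passed and 1 had an unadjusted p under 0.05, and Sst, G6pc2 and Slc30a8 differed by −0.22, −0.37 and −0.69 log2. In Pdx-1+/- against control they differed by −0.45, −0.79 and −0.75 log2 without passing. Array medians over all genes lay between 6.45 and 6.55, and precision is limited by how few arrays each group has.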

How the data were processed

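Per the labels' protocols, islet RNA was hybridised to Affymetrix Mouse Gene 1.0 ST arrays. Per the submitters' processing notes, the authors made the deposited log2 values with RMA in Affymetrix Expression Console (version not given); the log base was read from their range. Of 35556 transcript clusters, the 21789 with 1 gene symbol were kept, and the cluster with the highest mean stood for a gene, which left 19938 genes. All 14 arrays entered a joint limma 3.58.1 fit of the 3 group means (R 4.3.3), with Benjamini-Hochberg adjustment over all genes of a comparison and a threshold of 0.05; the scripts were tested on simulated data. No array was dropped or signal filter applied. Arrays were grouped by their titles. The marker genes, the lists and the alternatives were chosen with earlier results of these data known. The rule allowed the 10 markers, list genes that passed and up to 3 more of each list by adjusted p, and the 6 genes most like the markers' mean; the text names part of them, chosen after their values were seen. No scan dates or batches were given. Of 13 correlations between the deviations of same-numbered arrays, 2 were over 0.1, and they ran from −0.391 to 0.356. These correlations cannot exclude a pairing, and the main fit used none.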

Additional observations from a re-analysis of the deposited data

Results flagged for a closer look

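The highest and lowest array of each group was set against its neighbours with Dixon's test at the 5% level, in 240 sets of 4 or 5 arrays for the genes and lists above, and 21 readings stood out; chance alone marks about 1 set in 20. Of the 30 sets for the 10 markers, 2 were among them: Csf1r on Pdx-1+/- array 4, at 9.55 below the others of its group, and Cx3cr1 on control array 1, at 6.44 below its group. IKK2-CA array 5 stood above its group for Ctss (10.88), Lbp (9.44), Malt1 (8.06), Clec4n (7.36), Itgax (9.36) and Retnla (9.94). It did so also for the list means of Toll-like receptor 4 and Dectin-1 signalling (0.77), dendritic cell genes (1.72) and adipocyte genes (2.54), and it lay below its group for acinar genes (−0.38). Pdx-1+/- array 4 was low for Ctss (8.2) and Malt1 (6.43) and high for the intestinal genes (2.88), and control array 3 was high for the intestinal genes (1.33). Flt3 was high on control array 2 (5.65) and low on Pdx-1+/- array 2 (4.96), and Cd209a was high on Pdx-1+/- array 1 (8.17). Zbtb46 read 6.85 on control array 2 and Dpp4 9.21 on IKK2-CA array 3, each apart from its group.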

How the results depend on the processing

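Over 25 alternatives, the Clec7a difference from control passed in 25 (limma adjusted p 0.000736 to 0.042) and that of Ccr2 in 19 (0.00287 to 0.0816), failing at 0.0633 with only the compared groups in the fit and in 5 fits without 1 array. Against Pdx-1+/-, Clec7a passed in 5 (0.00199 to 0.485) and Ccr2 in 4 (0.00673 to 0.687). The count of markers higher against Pdx-1+/- was 2 with array weights and in both fits without arrays that stand apart, and 0 to 2 without 1 array. Against control it was 1 with only the compared groups, and 1 to 2 without 1 array. The replicate number as a block left 9, 197 and 9 genes called in the 3 comparisons (15, 448 and 19 without it), moved Clec7a and Ccr2 against Pdx-1+/- to 1.47 and 1.52 log2 (adjusted p = 0.256 and 0.188) and changed no marker call; over all alternatives the counts ran from 1 to 66, 120 to 1431 and 9 to 73. Differences near 0 changed sign. Without IKK2-CA array 5 and Pdx-1+/- array 4, Itgam was −0.27 and Cd14 −0.05 against Pdx-1+/-, Itgam −0.10 against control, and Ccr2 0.02 in Pdx-1+/- against control. Without control array 3 too, these were −0.27, −0.05 and −0.17 for the first 3, with Cd14 −0.03 against control and Clec7a −0.01 in Pdx-1+/- against control. With array weights Itgam was 0.00 against Pdx-1+/-, and Csf1r and Mrc1 0.05 against control; with median centring Csf1r was 0.00 against control and Zbtb46 −0.01 against Pdx-1+/- (0.00 with quantile normalization). With the block Itgam was −0.03 against Pdx-1+/-, and Ccr2 0.20 and Cd163 −0.03 in Pdx-1+/- against control. Without 1 array the log2 differences ran, against Pdx-1+/-, from −0.14 to 0.18 for Itgam, −0.22 to 0.09 for Cd68, −0.03 to 0.03 for Zbtb46 and −0.52 to 0.08 for Dpp4. Against control they ran from −0.13 to 0.11 for Csf1r, −0.10 to 0.22 for Itgam, −0.26 to 0.02 for Mrc1 and −0.01 to 0.08 for Zbtb46. In Pdx-1+/- against control they ran from −0.07 to 0.10 for Clec7a, −0.07 to 0.18 for Cx3cr1, −0.02 to 0.11 for Fcgr1, −0.10 to 0.17 for Itgam, −0.06 to 0.19 for Cd14, −0.12 to 0.16 for Cd163 and −0.17 to 0.03 for Ccr2. The cause of these changes was not tested. How few arrays there are, and how dim a probe is, limits what could be detected.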
